A study of Rattus norvegicus with 45 samples.

Results

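The hypoxia-responsive genes Slc2a1, P4ha1, P4ha2, Ddit4, Vegfa, Adm, Egln1, Egln3, Hif1a and Ndrg1 were followed in the livers of rats given acetaminophen (APAP). They were chosen by gene symbol and, like the gene lists below, with earlier results of these data known. All 10 of 10 were found among the 13877 genes of the array table, each as 1 probe set and each matched to a current RefSeq gene. The animals were male Sprague-Dawley rats, 5 weeks old and fasted for 16 h before dosing. There were 9 groups of 5 rats, with 1 liver array per rat: APAP at 1000 mg/kg by oral gavage and killed at 3, 6, 9 or 24 h, vehicle (1% w/v hydroxyethylcellulose, in which APAP was given) at the same 4 times, and an untreated baseline group killed at 0 h. Large amounts of this painkiller harm hepatocytes through a reactive metabolite. Rats are known as a species that is hard to injure with it, which limits the groups as a model of severe damage. Every level below is a log2 intensity made by the authors with RMA, and a change is a difference between group means on that scale with its standard error (SE).

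Cells sense oxygen through prolyl hydroxylases, which mark the alpha subunits of hypoxia-inducible factor (HIF) for destruction while oxygen is present. When oxygen falls, HIF escapes and switches on genes for glucose uptake, collagen modification, blood vessel growth and growth arrest, among them the hydroxylases themselves. The control of Hif1a is largely exerted on the protein, so its mRNA need not follow its activity. The liver lobule has a natural oxygen gradient, and the cells around the central vein, which are also those that activate most APAP, lie at its low end. Several of these genes have other inducers too: Ddit4 is also switched on by glucocorticoids and by Atf4, the transcription factor of the integrated stress response.

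Calls required a limma adjusted p below 0.05, computed over all 13877 genes, together with at least a 1.5-fold difference, and a gene is said to have risen or fallen only where it was called. The labelled tissue was checked against its markers: Alb, which encodes albumin, lay between 14.94 and 15.07 on all 45 arrays, and the median change of 10 hepatocyte markers with APAP against vehicle was -0.03, -0.06, -0.03 and 0.06 at 3, 6, 9 and 24 h. Arrays of the same group correlated across genes at a Pearson r of 0.983 to 0.996, and 0 pairs of arrays were identical. At 9 h the livers of APAP replicates 1, 4 and 5 stood apart by blood cell markers. The mean level of 8 genes of erythroid cells and platelets was 10.04, 8.54, 8.74, 9.57 and 9.90 in APAP replicates 1 to 5, against 8.69 to 8.97 in the vehicle rats of that time. All 8 were measured, and at 9 h 3 of them rose, the hemoglobin genes Hba-a1 (0.85 ± 0.31) and Hbb (0.82 ± 0.24) and the platelet gene Pf4 (1.24 ± 0.46). The 9 h changes of the 10 genes are therefore also given without those 3 rats, while the results of the gene lists are given with all rats only. Of 8 Kupffer cell and macrophage markers, Cd163 rose at 3, 6 and 9 h (0.65 ± 0.13, 0.59 ± 0.11 and 0.86 ± 0.15) and Adgre1 fell at 9 and 24 h (-0.95 ± 0.15 and -0.64 ± 0.11), with a median over the 8 of 0.29, 0.08, 0.10 and -0.22 at 3, 6, 9 and 24 h. The mean level of these 8 was 9.37 to 9.86 in APAP rats and 9.21 to 9.38 in vehicle rats at 3 h, and the ranges overlapped at all 4 times. Of 6 cholangiocyte markers, Krt19 fell (-0.90 ± 0.10) and Epcam rose (0.67 ± 0.10) at 9 h. The part of these cells in the results was not tested. In whole tissue, fewer cells of a type and less RNA per cell cannot be told apart.

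Against vehicle, the number of these genes that rose with APAP was 2 at 3 h, 3 at 6 h, 6 at 9 h and 0 at 24 h, and every call was a rise. Ddit4, a brake on the growth kinase complex mTORC1, and Slc2a1, the glucose transporter GLUT1, rose at 3 h. P4ha1, a collagen prolyl hydroxylase subunit, joined them at 6 h. At 9 h the 6 were Slc2a1, P4ha1, its relative P4ha2, the vasodilator peptide gene Adm, the oxygen sensor Egln3 and the stress gene Ndrg1. Vegfa, Hif1a and Egln1 did not pass at any of the 4 times.

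Among all genes, 3.34% rose at 3 h, 7.06% at 6 h, 8.65% at 9 h and 1.56% at 24 h. The APAP and vehicle groups did not overlap for 20.2%, 33.1%, 35.0% and 10.1% of all genes at these times. For the 10 genes that held for 2, 5, 6 and 1. The median change of the 10 genes was 0.07, 0.26, 0.68 and -0.08 at 3, 6, 9 and 24 h, beside -0.02, -0.04, -0.03 and 0.01 over all genes. The 24 h count of 0 was limma's, and 6 of the 10 genes had an unadjusted p under 0.05 at that time, as had 23.3% of all genes. The plot of log2 change by time shows Ddit4 far above the others at 3 h, more genes past the fold threshold at 6 and 9 h, and at 24 h changes on both sides of 0 that are all smaller than 1.5-fold.

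**Figure D1:**
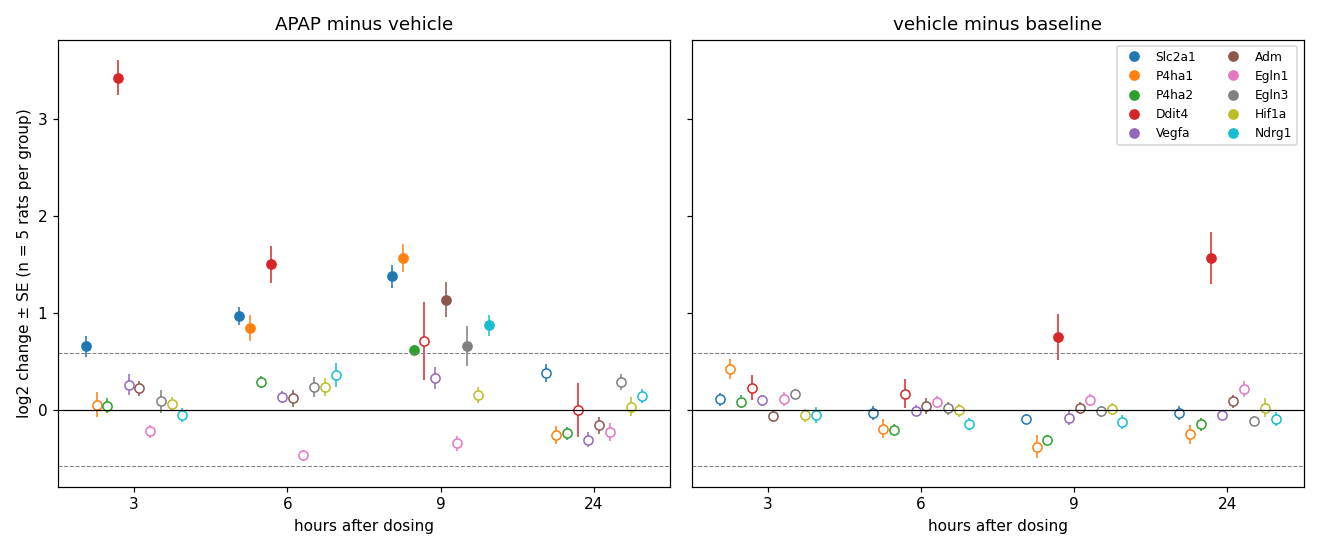
Log2 change ± SE of the 10 genes at 3, 6, 9 and 24 h (n = 5 rats per group), APAP minus vehicle on the left and vehicle minus baseline on the right, with filled points for genes that passed and dashed lines at a 1.5-fold change. Ddit4 stands at 3.43 at 3 h on the left, 6 genes are filled at 9 h and none at 24 h, while Ddit4 is the gene filled on the right, at 9 and 24 h.

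HIF binds a short core, ACGTG or GCGTG, so the 250 bases before the annotated start were read for each member with a window in the RefSeq table (build GRCr8). The 4 shown are of genes that rose and hold at least 1 core. Capitals mark the letters ACGTG or GCGTG on either strand, the other strand appearing as CACGT or CACGC.
Slc2a1, chr5:138002272-138002521, plus strand: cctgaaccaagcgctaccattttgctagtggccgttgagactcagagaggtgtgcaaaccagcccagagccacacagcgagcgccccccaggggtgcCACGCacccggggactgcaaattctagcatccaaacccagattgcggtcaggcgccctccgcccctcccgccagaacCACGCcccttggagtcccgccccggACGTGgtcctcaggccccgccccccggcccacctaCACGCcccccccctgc
P4ha1, chr20:27844796-27845045, plus strand: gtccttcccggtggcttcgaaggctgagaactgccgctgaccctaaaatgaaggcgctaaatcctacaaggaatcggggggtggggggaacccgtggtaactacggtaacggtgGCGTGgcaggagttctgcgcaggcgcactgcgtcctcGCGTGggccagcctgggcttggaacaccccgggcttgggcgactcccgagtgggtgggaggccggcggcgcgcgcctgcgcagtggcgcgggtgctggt
P4ha2, chr10:38743644-38743893, plus strand: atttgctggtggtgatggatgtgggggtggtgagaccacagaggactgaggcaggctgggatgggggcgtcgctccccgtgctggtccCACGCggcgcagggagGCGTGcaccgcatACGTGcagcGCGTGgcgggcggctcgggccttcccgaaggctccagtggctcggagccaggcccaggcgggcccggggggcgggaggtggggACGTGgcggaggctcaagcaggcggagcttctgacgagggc
Ddit4, chr20:28437038-28437287, minus strand: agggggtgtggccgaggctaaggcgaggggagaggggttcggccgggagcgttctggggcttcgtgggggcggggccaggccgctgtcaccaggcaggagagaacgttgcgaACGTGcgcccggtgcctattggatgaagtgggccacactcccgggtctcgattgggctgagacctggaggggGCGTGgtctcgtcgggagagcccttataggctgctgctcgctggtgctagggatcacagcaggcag

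Slc2a1 had 1 ACGTG and 3 GCGTG, P4ha1 had 2 GCGTG, P4ha2 had 2 ACGTG and 3 GCGTG, and Ddit4 had 1 of each. The starts used for P4ha1, Adm, Hif1a and the second Vegfa window lie inside the gene's annotated span and not at its first base. A base could belong to more than 1 match. In all, 6 of the 9 members with a window held a core, Egln1 and Hif1a being the other two, and Vegfa (2 windows), Adm and Egln3 held none in these 250 bases. Of 33469 windows of this length, 36.7% held ACGTG or GCGTG on either strand. The letters TGATGNAA, an element read by C/EBP and Atf4 dimers, were in 0 of the 9 members' windows and in 3.4% of all windows. A match is a run of letters and no measure of binding, and Ndrg1 is named only.

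Gene positions from here on are of build GRCr8. Hif1a (chr6:98357788-98405068) encodes the oxygen-regulated alpha subunit itself. Its levels at 6 h were 10.53, 10.40, 10.06, 10.32 and 10.19 in APAP rats, against 10.08, 9.85, 10.16, 10.13 and 10.10 in vehicle rats. All APAP rats except the third were above every vehicle rat, so the groups overlapped. The change was 0.23 ± 0.09 at 6 h (limma adjusted p = 0.0543) and 0.15 ± 0.08 at 9 h (limma adjusted p = 0.166), with 0.06 ± 0.07 at 3 h and 0.03 ± 0.10 at 24 h. Group means lay between 10.01 ± 0.12 and 10.30 ± 0.18 (SD, n = 5) over all 9 groups. Ordered by mean, 0 of the 8 steps between neighbouring groups exceeded the larger of the 2 SDs.

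Egln1 (chr19:69765276-69804681) and Egln3 (chr6:77385549-77411015) encode PHD2 and PHD3, the hydroxylases that mark HIF. Egln1 at 6 h was 7.32, 7.42, 7.41, 7.34 and 7.53 in APAP rats, against 7.99, 7.82, 7.82, 7.82 and 7.92 in vehicle rats. Every APAP rat was below every vehicle rat. The change of -0.47 ± 0.06 (limma adjusted p = 3.54e-05) was under the fold threshold, so Egln1 was not called, and the same held at 3 h (-0.22 ± 0.07, limma adjusted p = 0.0307) and 9 h (-0.35 ± 0.08, limma adjusted p = 0.0033). At 24 h it was -0.23 ± 0.09 (limma adjusted p = 0.152). Group means of Egln1 ran from 7.40 ± 0.08 in APAP rats at 6 h to 8.01 ± 0.16 in vehicle rats at 24 h (SD, n = 5), and the 4 APAP groups were the lowest 4 of the 9, although no neighbours in that order were further apart than the larger of their SDs.

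Egln3 went the other way and unevenly. At 9 h it was 6.05, 5.30, 6.50, 5.32 and 5.41 in APAP rats, against 5.13, 4.91, 5.13, 5.04 and 5.08 in vehicle rats. All 5 APAP rats were above all vehicle rats, with replicates 1 and 3 far above the other three. Egln3 rose by 0.66 ± 0.20 (1.58-fold, 95% interval 1.16 to 2.15, limma adjusted p = 0.0195). Without replicate 1 the change was 0.57 (limma adjusted p = 0.0498) and without replicate 3 it was 0.46 (limma adjusted p = 0.0181), both under the fold threshold, so the call rested on these 2 rats. Egln3 did not pass at 3 h (0.09 ± 0.11), 6 h (0.24 ± 0.11) or 24 h (0.28 ± 0.09, limma adjusted p = 0.0534), and its mean level was at the 13.6th percentile of all genes, in the dim part of the array.

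Of 15 other measured genes of oxygen sensing and the HIF machinery, 1 rose at 3 h, 3 at 6 h, 3 at 9 h and 1 at 24 h. Among all genes 3.34%, 7.06%, 8.65% and 1.56% rose at these times. Siah2, a ubiquitin ligase that destroys EGLN proteins, rose at 3 h (0.95 ± 0.18) and 6 h (0.63 ± 0.12). In vehicle rats Siah2 was lower than at baseline by -0.59 ± 0.08 at 3 h, and in APAP rats it did not pass against baseline at 3 or 6 h. Vhl, which delivers hydroxylated HIF to the proteasome, rose at 6 h (1.04 ± 0.10) and 9 h (0.77 ± 0.08). Cited2, a HIF-induced competitor for its coactivators, rose at 6 h (1.06 ± 0.11) and 9 h (1.59 ± 0.24). The chaperone gene Hsp90ab1 rose at 9 h (0.94 ± 0.05) and 24 h (0.74 ± 0.12), and at 24 h it was lower in vehicle than at baseline by -0.62 ± 0.08. The whole list of 18 measured genes had a median change of -0.02, 0.12, 0.18 and 0.02 at 3, 6, 9 and 24 h.

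Slc2a1 (chr5:138002522-138030742), which carries glucose into cells and is low in resting hepatocytes, rose at 3 times. At 3 h it was 8.58, 8.31, 8.31, 8.43 and 7.93 in APAP rats, against 7.60, 7.93, 7.63, 7.56 and 7.56 in vehicle rats. At 6 h it was 8.42, 8.34, 8.31, 8.63 and 8.69 in APAP rats, against 7.72, 7.47, 7.35, 7.38 and 7.65 in vehicle rats. At 9 h it was 8.98, 8.56, 8.48, 9.04 and 9.11 in APAP rats, against 7.48, 7.47, 7.43, 7.38 and 7.52 in vehicle rats. The groups did not overlap at any of these 3 times, although at 3 h APAP replicate 5 met the highest vehicle rat to the second decimal.

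The rise of Slc2a1 was 0.65 ± 0.11 at 3 h (1.57-fold, limma adjusted p = 0.000873), 0.97 ± 0.10 at 6 h (1.95-fold, limma adjusted p = 5.55e-06) and 1.38 ± 0.12 at 9 h (2.6-fold, 95% interval 2.18 to 3.11, limma adjusted p = 1.68e-06). At 24 h the change of 0.38 ± 0.09 (limma adjusted p = 0.0195) was under the fold threshold and the groups overlapped, with APAP rats at 7.73 to 8.08 and vehicle rats at 7.35 to 7.77. Vehicle rats kept to the baseline level of 7.55 ± 0.05 (SD, n = 5) within 0.11 at all 4 times. In the order of group means the 4 APAP groups came first, at 9, 6, 3 and 24 h, and the steps below APAP 9 h, APAP 3 h and APAP 24 h exceeded the larger SD.

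Of 10 other measured genes of glucose uptake and glycolysis, 1 rose at each of 3, 6 and 9 h, beside 3.34%, 7.06% and 8.65% of all genes. At 24 h 1 of the 10 fell, beside 1.84% of all genes. The riser was Pfkfb3 each time, which makes an activator of glycolysis (0.77 ± 0.07, 1.10 ± 0.10 and 1.19 ± 0.14). Pdk1, which closes the entry of pyruvate into mitochondria, fell at 24 h (-1.39 ± 0.09), a time when it was higher in vehicle than at baseline by 1.34 ± 0.08. Only 11 of the 22 genes of that list, Slc2a1 included, were on the table, and those such as Ldha, Gapdh, Aldoa and Pkm are not analysed here.

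P4ha1 (chr20:27784696-27895785) and P4ha2 (chr10:38743894-38772741) encode catalytic subunits of the enzyme that hydroxylates prolines in collagen, which lets the triple helix hold at body temperature. P4ha1 at 9 h was 10.18, 9.52, 9.49, 10.04 and 9.84 in APAP rats, against 8.32, 7.83, 8.30, 8.40 and 8.40 in vehicle rats. At 6 h it was 9.64, 8.98, 8.99, 9.16 and 9.61 in APAP rats, against 8.50, 8.25, 8.57, 8.51 and 8.34 in vehicle rats. The groups were apart at both times, and the gap at 9 h was wider than the whole range of either group.

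P4ha1 rose by 0.84 ± 0.14 at 6 h (1.79-fold, limma adjusted p = 0.000262) and 1.57 ± 0.15 at 9 h (2.96-fold, 95% interval 2.36 to 3.71, limma adjusted p = 4.25e-06). At 3 h the change was 0.05 ± 0.13, and both groups lay above the baseline of 8.63 ± 0.20, with 9.10 ± 0.30 in APAP rats and 9.05 ± 0.16 in vehicle rats (SD, n = 5). Vehicle rats were higher than baseline by 0.42 ± 0.10 at that time (limma adjusted p = 0.009, under the fold threshold). At 24 h P4ha1 was -0.26 ± 0.09 (limma adjusted p = 0.105), with the APAP group the lowest of the 9 groups.

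P4ha2 moved less and with less scatter. At 9 h it was 8.37, 8.55, 8.46, 8.39 and 8.38 in APAP rats, against 7.82, 7.78, 7.79, 7.84 and 7.83 in vehicle rats. Each group stayed within 0.2 units, and P4ha2 rose by 0.62 ± 0.05 (1.54-fold, 95% interval 1.42 to 1.66, limma adjusted p = 1.11e-06). At 6 h a change of 0.28 ± 0.06 (limma adjusted p = 0.00283) was under the fold threshold with the groups apart, and at 24 h the change was -0.24 ± 0.07 (limma adjusted p = 0.0402). The vehicle rats at 9 h were themselves below the baseline of 8.12 ± 0.11 by -0.31 ± 0.05 (limma adjusted p = 0.000951). Against baseline the APAP rats at 9 h differed by 0.31 ± 0.06, which was not called.

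Of 14 other measured genes of collagen hydroxylation and crosslinking, the number that fell was 2 at 3 h, 1 at 6 h, 2 at 9 h and 3 at 24 h, and 1 gene rose, at 6 h. Among all genes 2.98%, 7.04%, 8.47% and 1.84% fell at 3, 6, 9 and 24 h, and 7.06% rose at 6 h. Serpinh1, the collagen chaperone HSP47, fell at 3 h (-0.65 ± 0.06), 6 h (-1.12 ± 0.12) and 9 h (-1.43 ± 0.08). The crosslinking oxidase gene Loxl4 fell at 3 h (-0.77 ± 0.27) and rose at 6 h (0.79 ± 0.12). At 6 h Loxl4 was lower in vehicle than at baseline by -0.83 ± 0.16, and against baseline 0 of the 14 rose in APAP rats. Loxl2 fell at 9 h (-0.67 ± 0.13) and 24 h (-0.74 ± 0.13). The collagen genes Col1a1 (-0.87 ± 0.18) and Col3a1 (-0.63 ± 0.10) fell at 24 h. Of the 10 stellate cell and fibroblast markers, the vitamin A enzyme gene Lrat fell at 6, 9 and 24 h (-1.55 ± 0.18, -2.56 ± 0.10 and -0.93 ± 0.16), Dcn rose at 9 h (0.66 ± 0.15), and the 2 collagen genes fell at 24 h. The mean level of those markers was 7.78 to 7.83 in APAP rats and 7.84 to 7.94 in vehicle rats at 3 h, and 7.61 to 7.77 in APAP rats and 7.82 to 7.99 in vehicle rats at 6 h. It was 7.52 to 7.74 in APAP rats and 7.82 to 7.95 in vehicle rats at 9 h, and 7.58 to 7.85 in APAP rats and 7.83 to 8.09 in vehicle rats at 24 h. This mean, which includes Lrat, was thus lower in every APAP rat than in any vehicle rat at 3, 6 and 9 h and overlapped at 24 h. The median change of the 10 stellate cell and fibroblast markers was -0.10, -0.08, -0.06 and -0.03 at 3, 6, 9 and 24 h. The part of those cells in the values of P4ha1, P4ha2 and the collagen list was not tested.

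**Figure D2:**
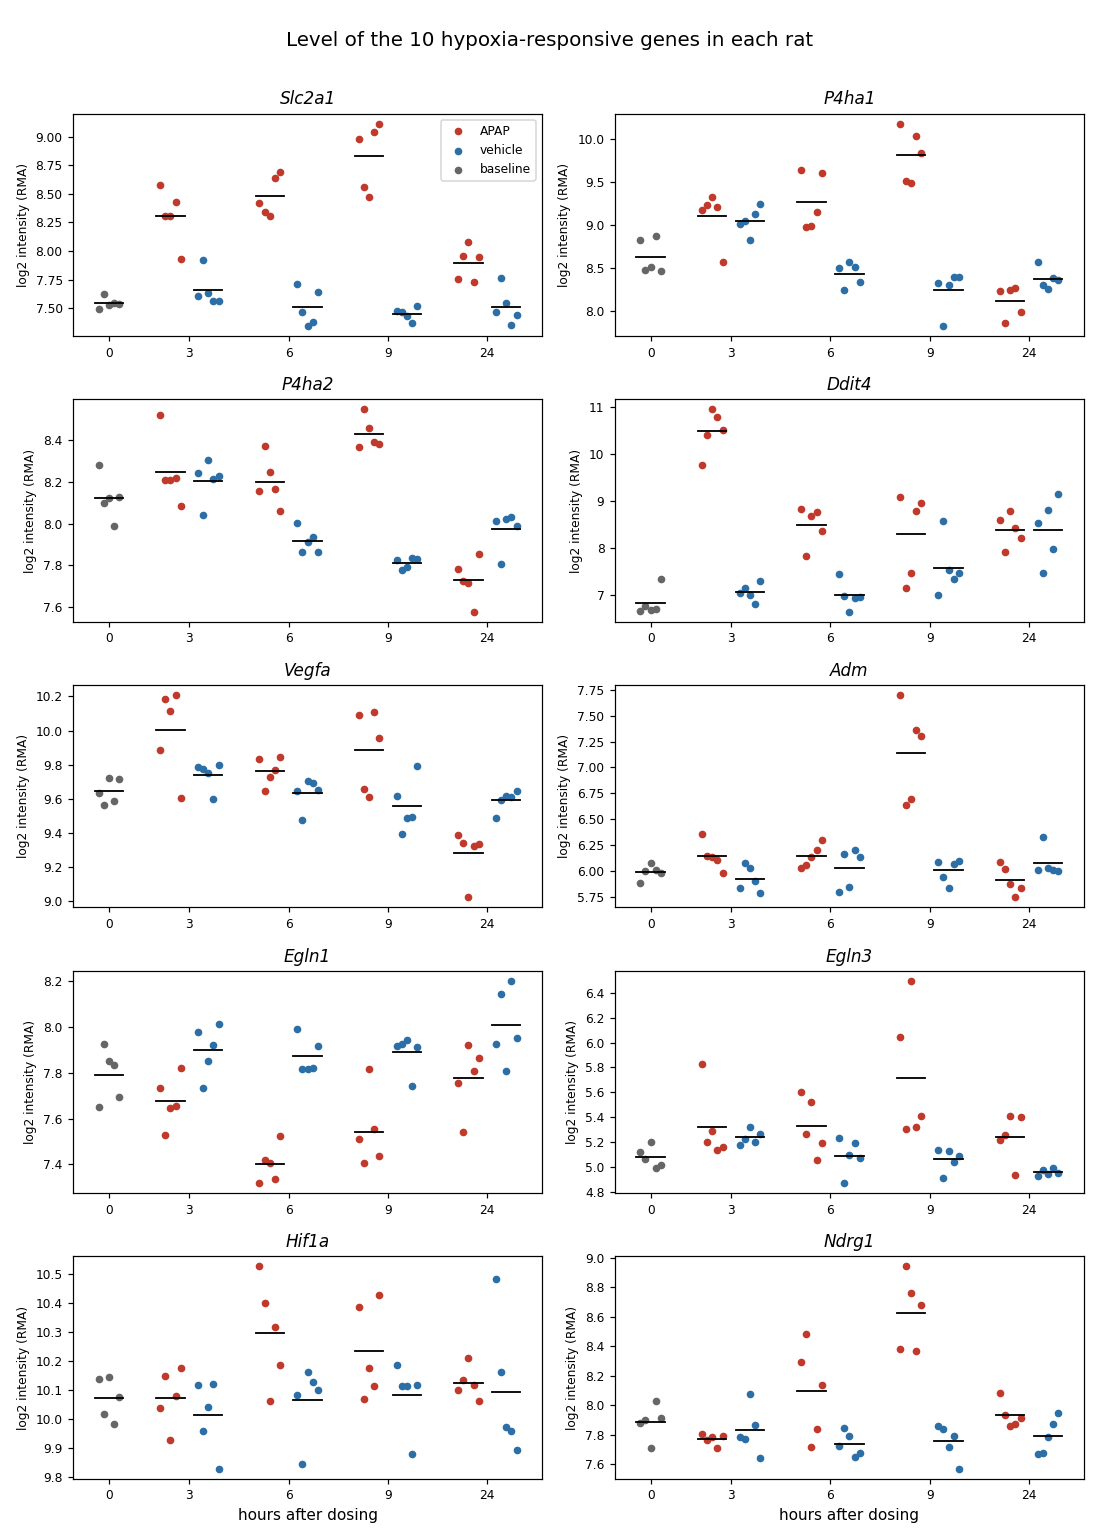
Log2 intensity of each of the 10 genes in each of the 45 rats (points) with the group mean (bar), by hours after dosing, with APAP left of vehicle at each time and the untreated baseline at 0 h. Ddit4 is highest at 3 h, Slc2a1, P4ha1, P4ha2, Adm and Ndrg1 are highest in APAP rats at 9 h, and Egln1 is lowest in APAP rats at 6 h.

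Ddit4 (chr20:28434938-28437037) encodes REDD1, which releases the TSC complex to hold back mTORC1. At 3 h it was 9.76, 10.40, 10.94, 10.78 and 10.50 in APAP rats, against 7.04, 7.14, 6.99, 6.79 and 7.28 in vehicle rats. At 6 h it was 8.83, 7.82, 8.68, 8.76 and 8.35 in APAP rats, against 7.43, 6.98, 6.64, 6.94 and 6.95 in vehicle rats. The groups were apart at both times, with the lowest APAP rat at 3 h above the highest vehicle rat by more than 2 units. Ddit4 rose by 3.43 ± 0.18 at 3 h (10.7-fold, 95% interval 8.15 to 14.2, limma adjusted p = 1.76e-07) and by 1.5 ± 0.19 at 6 h (2.83-fold, limma adjusted p = 3.51e-05).

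Later the Ddit4 groups ran together. At 9 h it was 9.07, 7.15, 7.46, 8.78 and 8.94 in APAP rats, against 7.0, 8.56, 7.52, 7.33 and 7.47 in vehicle rats. APAP replicates 1, 4 and 5 were above every vehicle rat and the other two were within the vehicle range, where vehicle replicate 2 stood high. The change was 0.71 ± 0.40 (limma adjusted p = 0.176). It passed without APAP replicate 2 (0.99, limma adjusted p = 0.0435), and was -0.27 without APAP replicates 1, 4 and 5. At 24 h it was -0.0026 ± 0.28, with APAP rats at 7.91 to 8.79 and vehicle rats at 7.47 to 9.14. Both 24 h groups were high, and Ddit4 rose in vehicle rats against baseline by 1.56 ± 0.27 (2.95-fold, limma adjusted p = 0.00108).

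The Atf4 circuit, named above as another inducer of Ddit4, moved broadly. Of 15 measured genes, 13 rose at 3 h, 14 at 6 h, 12 at 9 h and 1 at 24 h, beside 3.34%, 7.06%, 8.65% and 1.56% of all genes. The median change of the 15 was 1.96, 3.20, 2.65 and 0.16. The largest at 3 h were Atf3 (6.62 ± 0.35), the glutathione-degrading Chac1 (5.20 ± 0.44), and the stress hormones Gdf15 (4.49 ± 0.39) and Fgf21 (3.95 ± 0.28). Trib3 (5.54 ± 0.12) and the phosphatase subunit gene Ppp1r15a (4.14 ± 0.10) were among the largest at 6 h, and Slc7a11 (3.81 ± 0.25) and Ddit3 (3.65 ± 0.24) at 9 h. The 24 h riser was Slc3a2 (0.62 ± 0.16), a partner of amino acid carriers. At 9 h the mean level of this list was 10.40 and 10.12 in APAP replicates 2 and 3 and at least 10.88 in the other three, against 7.75, 9.03, 8.11, 8.42 and 8.21 in vehicle rats. The 2 APAP rats lowest in Ddit4 were lowest here and the vehicle rat highest in Ddit4 was highest here. Those 2 APAP rats were also above every vehicle rat on this list, while their Ddit4 lay within the vehicle range. From 3 to 6 h the APAP effect on Ddit4 changed by -1.93, while the median change of the list was 1.96 and then 3.20. The part of the circuit in the Ddit4 values was not tested.

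Ndrg1 (chr7:100573526-100614902) encodes a stress-induced protein of growth arrest and differentiation. At 9 h it was 8.38, 8.94, 8.76, 8.37 and 8.68 in APAP rats, against 7.86, 7.84, 7.72, 7.80 and 7.57 in vehicle rats. The groups were apart and Ndrg1 rose by 0.87 ± 0.11 (1.83-fold, 95% interval 1.55 to 2.16, limma adjusted p = 4.08e-05). At 6 h APAP rats were at 8.29, 8.49, 7.72, 7.84 and 8.14, against 7.72, 7.85, 7.79, 7.65 and 7.68 in vehicle rats. APAP replicates 3 and 4 were inside the vehicle range at that time, and the change of 0.36 ± 0.13 (limma adjusted p = 0.0373) was under the fold threshold. It was -0.06 ± 0.07 at 3 h and 0.14 ± 0.07 at 24 h, and of the 8 steps in the order of group means, that below APAP at 9 h exceeded the larger SD.

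Of 9 other measured genes among the mTORC1 brakes and the NDRG family, the number that rose was 1, 1, 2 and 1 at 3, 6, 9 and 24 h, and 1 fell at 6 h and 2 at 9 h. Among all genes 3.34%, 7.06%, 8.65% and 1.56% rose at 3, 6, 9 and 24 h, and 7.04% and 8.47% fell at 6 and 9 h. Sesn2, a sensor of leucine that restrains mTORC1 and also a gene of the Atf4 list, rose at 3, 6 and 9 h (1.96 ± 0.24, 3.20 ± 0.16 and 2.80 ± 0.32). Ddit4l, the relative of Ddit4, rose at 9 h (1.40 ± 0.24) and 24 h (1.26 ± 0.26), a pattern later than that of Ddit4. Ndrg2, a relative of Ndrg1 found in resting hepatocytes, fell at 6 h (-0.89 ± 0.14) and 9 h (-1.58 ± 0.12), while Deptor, an mTOR inhibitor, fell at 9 h (-0.81 ± 0.08).

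Adm (chr1:174164178-174182372) encodes adrenomedullin, a peptide that widens vessels and protects endothelium. It did not pass at 3 h (0.22 ± 0.08, limma adjusted p = 0.0548) or 6 h (0.12 ± 0.09, limma adjusted p = 0.337). At 9 h it was 7.70, 6.63, 6.70, 7.36 and 7.30 in APAP rats, against 6.08, 5.94, 5.84, 6.07 and 6.09 in vehicle rats. All 5 APAP rats were above all vehicle rats, and replicates 1, 4 and 5 were above the other two. Adm rose by 1.14 ± 0.18 (2.2-fold, 95% interval 1.67 to 2.89, limma adjusted p = 0.000239), and at 24 h the change was -0.16 ± 0.09. Its APAP mean at 9 h was 7.14 ± 0.46, and the other 8 group means lay between 5.91 ± 0.14 and 6.14 ± 0.11 (SD, n = 5).

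Vegfa (chr9:22452854-22468194) encodes the chief growth factor of vessel endothelium, made in liver by hepatocytes. Its change was 0.26 ± 0.11 at 3 h (limma adjusted p = 0.092), 0.13 ± 0.06 at 6 h (limma adjusted p = 0.111), 0.33 ± 0.11 at 9 h (limma adjusted p = 0.0308) and -0.31 ± 0.07 at 24 h (limma adjusted p = 0.0191). None of these reached 1.5-fold. At 24 h it was 9.39, 9.34, 9.02, 9.32 and 9.33 in APAP rats, against 9.49, 9.60, 9.62, 9.61 and 9.64 in vehicle rats, so that the groups did not overlap. At 9 h they did, with APAP rats at 10.09, 9.66, 9.61, 10.11 and 9.96, against 9.62, 9.39, 9.49, 9.49 and 9.79 in vehicle rats.

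Of 20 other measured angiogenic and vasoactive signals and receptors, the number that rose was 2 at 3 h and 1 at each of 6 and 9 h, where 3.34%, 7.06% and 8.65% of all genes rose. The number that fell was 1 at 6 h, 4 at 9 h and 1 at 24 h, where 7.04%, 8.47% and 1.84% of all genes fell. Angptl4, a lipase inhibitor induced by fasting and hypoxia, rose at 3 h (2.20 ± 0.17) and 6 h (1.19 ± 0.24) and fell at 24 h (-1.78 ± 0.22). In vehicle rats it was lower than at baseline at every time, by -2.46 ± 0.10 at 3 h. Those that fell at 6 and 9 h were Nrp1, a coreceptor for VEGF, at 6 h (-1.11 ± 0.07) and 9 h (-0.98 ± 0.10), and at 9 h also the VEGF receptor Kdr (-0.73 ± 0.17), the angiopoietin receptor Tek (-0.76 ± 0.08) and Ramp1 (-0.73 ± 0.09), a subunit of the receptor for CGRP, a relative of adrenomedullin. Kdr and Tek are endothelial markers, and of the 8 measured markers of those cells they were the 2 that passed at 9 h. The mean level of the 8, Kdr and Tek included, was then 8.08 to 8.29 in APAP rats and 8.37 to 8.47 in vehicle rats. The median change of the 8 was 0.04, 0.02, -0.10 and -0.20 at 3, 6, 9 and 24 h, and 1 of them rose at 6 h. The part of endothelial cells in these values was not tested.

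Of 23 other hypoxia-inducible genes measured, the number that rose was 6, 6, 8 and 1 at 3, 6, 9 and 24 h, and the number that fell was 1, 1, 3 and 3. Among all genes 3.34%, 7.06%, 8.65% and 1.56% rose and 2.98%, 7.04%, 8.47% and 1.84% fell. The median change of the 23 was 0.09, -0.01, 0.02 and -0.02 at these times. The risers with the largest changes have other inducers: Igfbp1, a binder of insulin-like growth factors induced by fasting and stress (6.62 ± 0.35, 5.46 ± 0.35 and 3.30 ± 0.33 at 3, 6 and 9 h), and the heme-degrading Hmox1 (2.73 ± 0.20, 4.17 ± 0.11 and 4.17 ± 0.08). In vehicle rats Igfbp1 was lower than at baseline, by -5.06 ± 0.35, -3.87 ± 0.36 and -2.52 ± 0.30 at 3, 6 and 9 h. In APAP rats it was higher than at baseline by 1.56 ± 0.08 at 3 h and 1.58 ± 0.09 at 6 h. The histone demethylase gene Kdm3a, a HIF target, rose at 3 h (1.39 ± 0.10) and 9 h (1.09 ± 0.16), and Errfi1 rose at 3 h (1.5 ± 0.14), Rora (1.38 ± 0.14) and Insig2 (1.23 ± 0.11) at 6 h. The glycogen-branching Gbe1 fell at 9 h (-1.37 ± 0.08), a time when it was higher in vehicle than at baseline by 1.82 ± 0.07. The others that fell, named after their values were seen, were Ppp1r3c at 3 h, Gbe1 at 6 h, and Igfbp3 and Bhlhe40 at 9 h. Of these, Ppp1r3c (1.99 ± 0.22), Gbe1 (1.51 ± 0.08) and Bhlhe40 (1.90 ± 0.21) were higher in vehicle than at baseline at the same times. At 24 h the clock regulator Bhlhe40 (-1.31 ± 0.31), Insig2 (-0.75 ± 0.22) and Igfbp3 (-0.73 ± 0.11) fell, and the transferrin receptor Tfrc (0.86 ± 0.12) rose. Vehicle rats at that time were above baseline in Bhlhe40 by 1.37 ± 0.33 and below it in Insig2 by -1.24 ± 0.15.

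**Figure D3:**
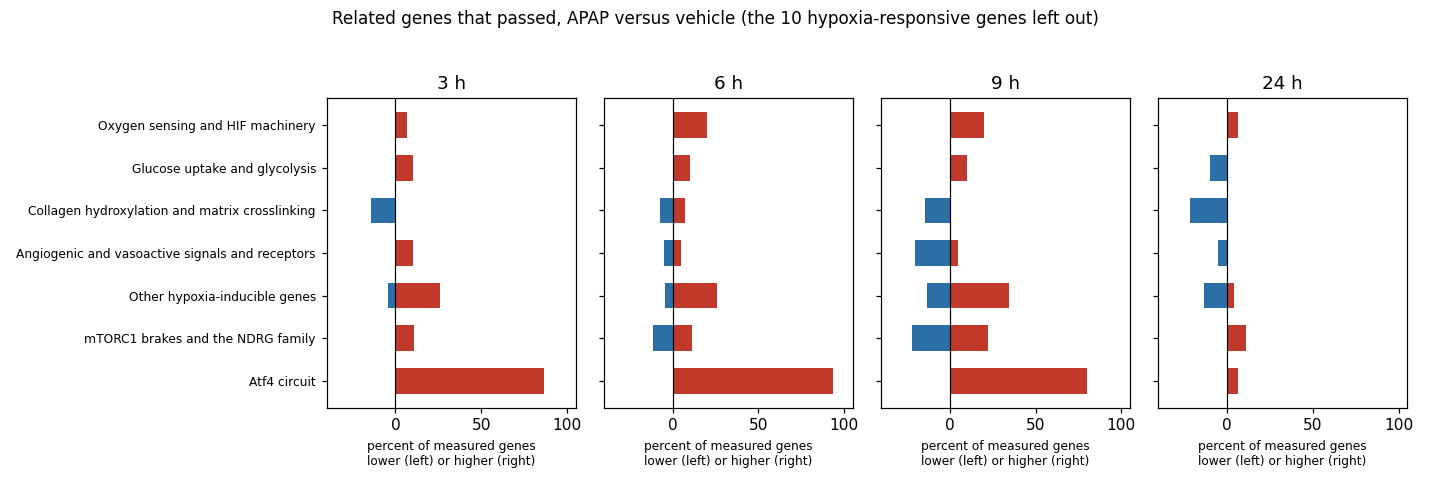
Share of the measured genes of 7 related lists that fell (bars to the left, in percent) or rose (bars to the right, in percent) with APAP against vehicle at 3, 6, 9 and 24 h, with the 10 hypoxia-responsive genes left out. The Atf4 circuit, with 13, 14 and 12 of 15 genes up at 3, 6 and 9 h, has the longest bars, and the oxygen-sensing list has 1, 3, 3 and 1 of 15 up.

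At 9 h the 5 APAP rats were not alike, and the genes did not share 1 order. Replicates 1, 4 and 5 held the 3 highest values of 5 of the 10 genes, Slc2a1, P4ha1, Ddit4, Vegfa and Adm. Replicates 2 and 3 held the 2 highest values of 2 others, P4ha2 and Ndrg1. Egln3 was highest in replicates 3 and 1, Hif1a in 5 and 1, and Egln1 in 3 and 4. Replicates 1, 4 and 5 were also those with raised erythroid and platelet genes, and the mean level of 9 measured neutrophil and monocyte markers was 6.24, 5.23, 5.42, 5.74 and 5.85 in APAP replicates 1 to 5, against 5.27 to 5.45 in vehicle rats. Of those 9 markers S100a8 (0.90 ± 0.34) and Il1r2 (0.64 ± 0.24) rose and alone passed at 9 h, and the neutrophil protease genes Mmp8 and Mmp9 were at most 5.27 and 5.17 on all 45 arrays. The mean of the hepatocyte markers was 13.51 to 13.67 in the same APAP rats and 13.58 to 13.63 in vehicle rats. The part of blood cells in the values of these genes was not tested.

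Without those 3 rats, an alternative chosen after seeing the data, APAP replicates 2 and 3 alone were left at 9 h. The count was again 6, and it was the same 6 genes, while 2371 of all 13877 genes were called in either direction. Egln3 was 5.30 in replicate 2 and 6.50 in replicate 3, so its call here leaned on replicate 3. The change was then 1.06 for Slc2a1, 1.26 for P4ha1, 0.69 for P4ha2, 0.66 for Adm, 0.84 for Egln3 and 1.10 for Ndrg1. Adm was the one of the 6 whose change moved by over 1.5 times. It was -0.27 for Ddit4, 0.08 for Vegfa, 0.04 for Hif1a and -0.28 for Egln1 (limma adjusted p = 0.0723), none of them called.

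**Figure D4:**
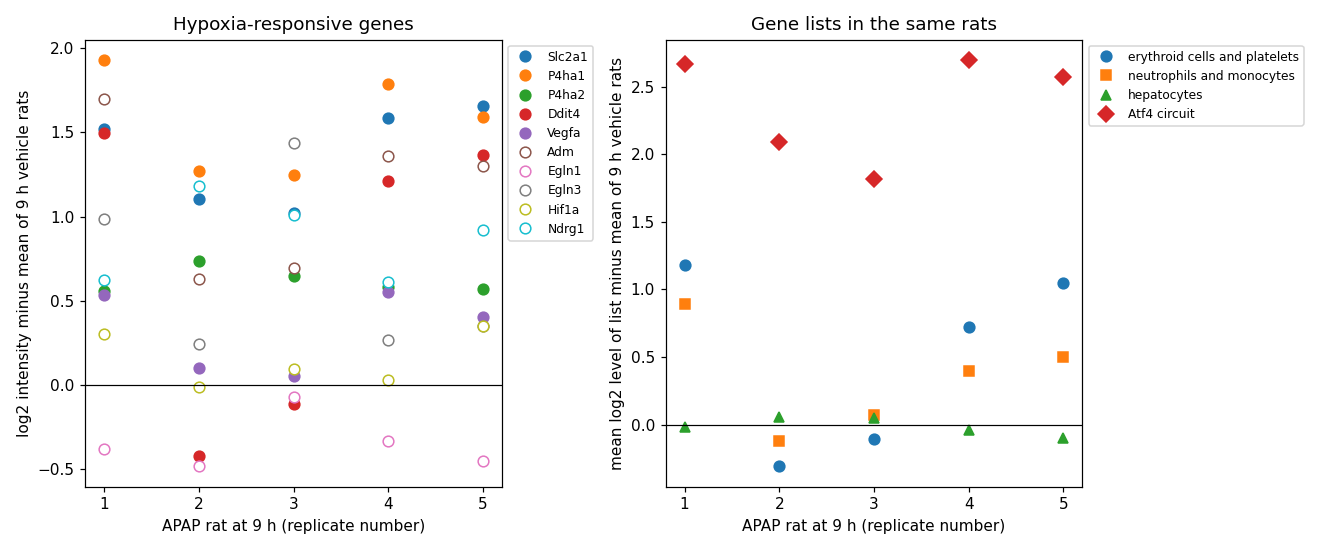
Each APAP rat at 9 h, by replicate number, with the log2 level of the 10 genes (left) and the mean log2 level of 4 gene lists (right), each minus the mean of the 9 h vehicle rats. Rats 1, 4 and 5 stand above rats 2 and 3 for Ddit4, Adm, Vegfa, P4ha1 and Slc2a1 and for erythroid, neutrophil and Atf4 genes, while P4ha2 and Ndrg1 are highest in rats 2 and 3.

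Each vehicle group was set against the untreated fasted baseline to see how far time, refeeding and gavage moved these genes without APAP; these influences cannot be told apart here. The number called was 0 at 3 h, 0 at 6 h, 1 at 9 h and 1 at 24 h, all of it Ddit4, which rose. Among all genes 1.7%, 2.7%, 3.48% and 3.62% rose at those times. The counts of 0 were limma's, and 2 of the 10 genes had an unadjusted p under 0.05 at 3 h and 2 at 6 h, beside 32.4% and 34.8% of all genes.

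Ddit4 in vehicle rats was 7.57 ± 0.59 at 9 h and 8.39 ± 0.66 at 24 h, against 6.82 ± 0.29 at baseline (SD, n = 5). The 24 h rats, at 8.53, 7.47, 8.81, 7.98 and 9.14, were all above the baseline rats, at 6.65, 6.76, 6.67, 6.70 and 7.33. Groups were apart for 19.2% of all genes in that comparison. At 9 h the groups overlapped and the rise of 0.75 ± 0.24 (limma adjusted p = 0.0341) was lost without any one of baseline replicates 1, 2, 3 and 4 or vehicle replicates 3 and 5 (limma adjusted p = 0.052 to 0.0727), and without vehicle replicate 2 the change was 0.51, under the fold threshold. Of the 15 measured genes of the Atf4 list, 3 rose in vehicle rats at 9 h and at 24 h, beside 3.48% and 3.62% of all genes. They were Psat1 (2.90 ± 0.37 and 3.69 ± 0.19), Asns (1.45 ± 0.40 and 2.82 ± 0.21) and Atf4 itself (0.87 ± 0.10 and 0.63 ± 0.13). The other 12 did not pass at either time.

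Against the same baseline, APAP rats gave 2, 3, 6 and 1 called genes at 3, 6, 9 and 24 h, all of them higher, where 2.43%, 5.93%, 7.89% and 4.54% of all genes rose. This comparison shares the APAP arrays with the one against vehicle, so the 2 are given side by side. Slc2a1 was higher by 0.76 ± 0.10, 0.93 ± 0.08 and 1.28 ± 0.12 at 3, 6 and 9 h, and P4ha1 by 0.64 ± 0.15 at 6 h and 1.18 ± 0.14 at 9 h. Adm (1.15 ± 0.18), Egln3 (0.64 ± 0.20) and Ndrg1 (0.74 ± 0.11) passed at 9 h, close to their values against vehicle. Ddit4 was higher at all 4 times, by 3.65 ± 0.20, 1.67 ± 0.19, 1.46 ± 0.35 and 1.56 ± 0.17, the last 2 beside 0.71 and -0.0026 against vehicle.

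Single rats decided some of these calls. P4ha1 at 3 h (0.47 ± 0.14) passed without APAP replicate 5 (0.61), and at 6 h it was under the fold threshold without APAP replicate 1 (0.55) or 5 (0.56). Egln3 at 9 h was under the fold threshold without APAP replicate 3 (0.44), and without replicate 1 (0.56) its limma adjusted p was 0.0591. Ddit4 at 9 h was 0.48 and not called without APAP replicates 1, 4 and 5. At 24 h P4ha1 (-0.51 ± 0.11), P4ha2 (-0.39 ± 0.07) and Vegfa (-0.36 ± 0.07) were below baseline with an adjusted p under 0.05, with groups apart and under the fold threshold. Groups were apart for 21.6% of all genes in that comparison.

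The change in the APAP effect from one time to the next was tested as an interaction term, in fits of 20 arrays. From 3 to 6 h the effect on P4ha1 rose by 0.79 ± 0.20 (limma adjusted p = 0.00798) and that on Ddit4 fell by 1.93 (SE 0.28, limma adjusted p = 6.94e-05), which made 1 and 1 of the 10 genes, beside 4.18% and 2.72% of all genes. From 6 to 9 h the effect rose for 2 genes, beside 1.66% of all genes. They were Adm (1.02 ± 0.21, limma adjusted p = 0.00477) and P4ha1 (0.73 ± 0.22, limma adjusted p = 0.0392). The call of P4ha1 was lost on leaving out 1 rat in 13 of 20 fits (limma adjusted p = 0.0515 to 0.0767): without vehicle replicate 1, 3, 4 or 5 or APAP replicate 2, 3 or 4 of the 6 h groups, or without vehicle replicate 1, 2 or 3 or APAP replicate 1, 4 or 5 of the 9 h groups. Ndrg1 (0.51 ± 0.18) passed without APAP replicate 2 of 6 h (0.61, limma adjusted p = 0.024). Without APAP replicates 1, 4 and 5 of 9 h, Adm (0.55) and P4ha1 (0.42) were not called, while Ddit4 (-1.77) and Ndrg1 (0.74) were.

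From 9 to 24 h the effect fell for 6 of the 10 genes, beside 8.03% of all genes. The change in effect was -1.0 ± 0.16 for Slc2a1, -1.82 ± 0.19 for P4ha1, -0.86 ± 0.08 for P4ha2, -1.30 ± 0.21 for Adm, -0.73 ± 0.14 for Ndrg1 and -0.64 ± 0.14 for Vegfa (limma adjusted p between 8.25e-08 and 0.00121). Vegfa, with a change of 0.33 at 9 h and -0.31 at 24 h, thus passed here although it passed at neither time alone. It was under the fold threshold without APAP replicate 4 of 9 h (-0.58) or APAP replicate 3 of 24 h (-0.57), and was -0.39 without APAP replicates 1, 4 and 5 of 9 h. Egln1 (0.12 ± 0.12), Egln3 (-0.37 ± 0.24), Hif1a (-0.12 ± 0.14) and Ddit4 (-0.71 ± 0.53) did not pass.

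Across the 45 arrays, which share treatments and times and are therefore no independent points, P4ha1 and P4ha2 had a Pearson r of 0.81 and Slc2a1 and P4ha1 of 0.78, and Slc2a1 and Egln1 ran opposite to each other (-0.74). Ddit4 and Ndrg1 had an r of 0.01. Among the genes most like each member were Tnfrsf12a (0.94) and Zfp703 (0.92) for Slc2a1, Phc2 (0.93) and the cochaperone gene Dnaja1 (0.92) for P4ha1, and Dnajc21 (0.85) and Dnaja1 (0.83) for P4ha2. Adm ran most closely with the collagenase gene Mmp13 (0.90) and the neutrophil chemoattractant gene Cxcl2 (0.90), Ndrg1 with Fosl1 (0.90) and Lrp8 (0.89), and Ddit4 with Nfkbia (0.86) and Clk4 (0.84). For Vegfa they were Pkdcc (0.79) and Prdm2 (0.79), for Egln1 Anp32a (0.84) and Septin9 (0.84), for Hif1a Ptbp3 (0.74) and Tiprl (0.72), and for Egln3 Klf5 (0.68) is given.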

How the data were processed

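Each of 45 rats gave 1 liver RNA sample, hybridised to its own Affymetrix expression array. The deposited log2 values were made by the authors with RMA (background correction, quantile normalisation and summary over probes) using affy 1.64.0 in R 3.6.1, with probes regrouped so that 1 probe set stands for 1 gene. Quantile normalisation hides any shift shared by all genes. A second deposited sheet gave Entrez numbers and symbols; its 45 value columns are headed by codes with no key in the labels and were not used. Values lay between 3.48 and 15.07, with 0 missing. No depth applies to arrays, and the number of arrays limits the precision.

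Each comparison was a limma fit (version 3.58.1, R 4.3.3, lmFit then eBayes, no covariate) of the 10 arrays compared, or 20 for interactions, with Benjamini-Hochberg adjustment over all 13877 genes. Scripts were tested on simulated data. The 10 genes, the lists and the rule for naming others were chosen with earlier results of these data known. The rule named all 10 genes, up to 4 passing genes with the largest change per list and time, and the 2 most correlated genes of each member; for comparisons with baseline only those beside a result are printed, and some genes that the rule names are not reported here. Alternatives were 1 fit of all 45 arrays, limma-trend, cyclic loess, array quality weights, a filter on the 25% dimmest genes, a replicate block, an adjusted p under 0.01, no fold threshold, and leaving out each rat. Array batches and scan dates are not given in the sources used here.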

Additional observations from a re-analysis of the deposited data

Results flagged for a closer look

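In the 90 sets of 5 rats (10 genes in 9 groups), 13 held 1 rat far from the other four, where chance marks about 1 set in 20. In APAP groups these were Egln3 at 3 h (replicate 1, 5.82, next 5.29), P4ha1 at 3 h (replicate 5, 8.57, next 9.18) and Vegfa at 24 h (replicate 3, 9.02, next 9.32). In vehicle groups they were Slc2a1 (replicate 2, 7.93) and Vegfa (replicate 4, 9.60) at 3 h, Hif1a (replicate 2, 9.85) and Vegfa (replicate 2, 9.47) at 6 h, Egln1 (replicate 4, 7.74), Hif1a (replicate 4, 9.88) and P4ha1 (replicate 2, 7.83) at 9 h, and Adm (replicate 2, 6.33) and P4ha2 (replicate 2, 7.81) at 24 h. At baseline it was Ddit4 (replicate 5, 7.33, next 6.76). Their part in the results is covered by leaving out each rat.

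The APAP effect differed between neighbouring times, by the interaction test, in 10 cases. The changes in effect were 0.79 for P4ha1 and -1.93 for Ddit4 from 3 to 6 h, and 0.73 for P4ha1 and 1.02 for Adm from 6 to 9 h. From 9 to 24 h they were -1.0 for Slc2a1, -1.82 for P4ha1, -0.86 for P4ha2, -0.64 for Vegfa, -1.30 for Adm and -0.73 for Ndrg1.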

How the results depend on the processing

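With no fold threshold the number of the 10 genes called was 6 at 6 h and 3 at 24 h for APAP against vehicle, 2, 1 and 3 at 3, 6 and 9 h for vehicle against baseline, and 4, 5 and 5 at 3, 6 and 24 h for APAP against baseline, since this setting drops one of the 2 conditions; in the same order 42.8% and 11% of all genes, then 22.3%, 26.2% and 28.2%, and 19.7%, 38.5% and 28% passed it. An adjusted p under 0.01 gave 0 for vehicle against baseline at 9 h and 1 for the change in effect from 6 to 9 h. One fit of all arrays gave 0 for vehicle against baseline at 9 h, and cyclic loess gave 1 for the change in effect from 6 to 9 h; the cause was not tested. Leaving out each rat in turn, the count ran from 0 to 1 for vehicle against baseline at 9 h and from 1 to 2 for the change in effect from 6 to 9 h, and stayed within 1.5 times otherwise, apart from 2 to 3 for APAP against baseline at 3 and 6 h at that limit. Limma-trend, array quality weights and leaving out the 25% dimmest genes, which removes Egln3, moved no count by over 1.5 times.

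Sizes near 0 changed sign: 18 changes, none called and at most 0.085 in size, did so on leaving out a rat. For APAP against vehicle the ranges were -0.0050 to 0.18 for P4ha1, -0.025 to 0.084 for P4ha2, -0.041 to 0.13 for Egln3 and -0.10 to 0.0044 for Ndrg1 at 3 h, and -0.23 to 0.19 for Ddit4 and -0.018 to 0.13 for Hif1a at 24 h. For vehicle against baseline they were -0.089 to 0.0033 for Slc2a1, -0.031 to 0.030 for Vegfa, -0.0042 to 0.097 for Adm, -0.022 to 0.069 for Egln3 and -0.032 to 0.047 for Hif1a at 6 h, -0.010 to 0.058 for Adm, -0.039 to 0.019 for Egln3 and -0.016 to 0.061 for Hif1a at 9 h, and -0.097 to 0.0066 for Slc2a1 and -0.075 to 0.072 for Hif1a at 24 h. For APAP against baseline they were -0.024 to 0.038 for Hif1a at 3 h and -0.050 to 0.045 for Egln1 at 24 h. Array quality weights gave Hif1a -0.0062 and -0.044 in vehicle against baseline at 9 and 24 h and -0.025 in APAP against baseline at 3 h, and cyclic loess gave it -0.031 in vehicle against baseline at 9 h and -0.034 in APAP against vehicle at 24 h. Without APAP replicates 1, 4 and 5 of 9 h, an alternative chosen after seeing the data, Ddit4 was -0.27 against vehicle and 0.27 for the change in effect from 9 to 24 h, and Vegfa was -0.012 against baseline and -0.054 for the change in effect from 6 to 9 h.

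The replicate numbers did not pair the rats: same-numbered deviations correlated at -0.23 to 0.31, over 0.1 in 14 of 60 pairs, and the own number was best in 11. With a replicate block the count of called genes over the table was 0.986 to 1.01 times that without it, and no call among the 10 genes changed. Some precision is limited by signal: Egln3 and Adm lay at the 13.6th and 27.9th percentile of mean level.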
